A study of Mus musculus with 14 samples.

Results

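Pax1, Pax9, Emx2 and Nkx3-2 are 4 transcription factor genes of the shoulder girdle, the anterior and proximal limb bud and early cartilage. They were chosen by name for these roles, as 4 of the 24454 genes with deposited counts, and their levels are described in all 14 libraries of the series. The study sorted mesenchymal cells of mouse forelimb buds by FACS to compare early progenitors with and without Sox9 expression, and sequenced their poly(A)+ RNA. All cells came from embryos with a Sox9-IRES-EGFP allele, whose EGFP reports Sox9 (S9+ or S9-), in a mixed Swiss Albino background, and the forelimb buds of several embryos were pooled for each library. No agent was given to any group. Dead cells (7AAD-positive) and cells that carried CD31, Ter119, CD45, EpCam, Gr1 or CD11b had been gated out of every population.

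The 5 populations were S9-JAG1+ limb bud mesenchymal progenitors (LMPs), which were negative for SCA-1 (3 libraries), S9-Pαhi LMPs, which had high surface PDGFRα and lacked JAG1 and SCA-1 (3 libraries), S9+Pαhi osteo-chondrogenic progenitors (OCPs, 3 libraries), S9+COL2+ chondroblasts (3 libraries) and S9-SCA-1+ cells, which lacked JAG1 (2 libraries, numbered 2 and 3). The chondroblasts were taken at E11.5 and the other populations at E10.5. The paper describes the chondroblasts as S9+Pαhi cells, like the OCPs, that also expressed Col2a1. Population and stage thus cannot be told apart in any comparison with chondroblasts.

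PAX1 and PAX9 are closely related paired-box transcription factors that act together in the sclerotome, from which the vertebrae form, and PAX1 is also required for parts of the shoulder girdle. EMX2 is a homeobox transcription factor that is needed for the shoulder blade to form and that is also expressed in the developing brain and urogenital system. NKX3-2 (also known as BAPX1) is a homeobox repressor that acts in the sclerotome and in cartilage, where it restrains the maturation of chondrocytes.

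Between 20316583 and 29162751 reads were counted on genes in each library. Levels are given in CPM, the counts relative to library totals scaled by the TMM method. A count of 0 allows for up to 3 counts, or 0.101 to 0.149 CPM, by counting error alone. Of the genes behind the sort, Jag1 was at 296 ± 67.9 CPM (SD, n = 3) in JAG1+ LMPs and at most 137 CPM in any other library, where it was highest in chondroblasts. Ly6a, which encodes SCA-1, reached 3.36 and 3.1 CPM in the SCA-1+ libraries and did not pass 0.406 CPM in the rest. Sox9 was at 411 to 625 CPM in the S9+ libraries and at most 65.5 CPM in the S9- ones, and Pdgfra was lowest in SCA-1+ cells (34.4 CPM) and JAG1+ LMPs (247 CPM). Col2a1, which the chondroblast label names, was at 1270, 1450 and 1890 CPM in chondroblasts and at 695, 1230 and 1050 CPM in OCPs, and the difference was not called (log2 0.64 ± 0.23, and 0.44 without chondroblast library 3). The SCA-1+ libraries also held 1500 CPM in sum over 7 myoblast genes, against at most 11.4 CPM in the other libraries, and replicate 3 of them held 2630 CPM over 7 blood genes, against 0.912 to 94.9 CPM elsewhere. Chondroblast library 3 stood apart from chondroblast libraries 1 and 2 in genes that include Pax1 and Emx2, and results that rest on it are given with and without it.

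Since Pax1 and Pax9 are paralogs and a read was 50 bases long, their transcripts were compared first, to see whether reads could have been counted on the wrong gene. The longest stretch that GENCODE transcripts of both genes share is 26 bases long and lies within a coding exon of each. It is printed in capitals within 86 bases on the plus strand of GRCm38, at chr2:147365864-147365949 for Pax1 and chr12:56696705-56696790 for Pax9.
Pax1: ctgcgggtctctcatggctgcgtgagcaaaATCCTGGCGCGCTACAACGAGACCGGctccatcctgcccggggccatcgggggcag
Pax9: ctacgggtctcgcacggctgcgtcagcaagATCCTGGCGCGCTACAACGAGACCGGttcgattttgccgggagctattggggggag
No stretch of 50 bases occurs in transcripts of both genes. The longest run shared by Emx2 and its paralog Emx1 was 14 bases, again with no stretch of read length in common.

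The 250 bases before the starts used in the RefSeq promoter set are printed for Pax1 (chr2:147364744-147364993) and Pax9 (chr12:56695221-56695470, both plus strand, GRCm38.p6). They are shown because the levels of these paralogs moved together in some comparisons and apart in others. Both windows lie inside the full gene spans, which start at chr2:147361930 and chr12:56691693, and not upstream of them. Both strands were searched for CCAAT, for the TATA box as TATAAA, for the core of SOX sites as ACAAT and for the core of GLI sites as GGGTGGTC, and capitals mark every match.
Pax1: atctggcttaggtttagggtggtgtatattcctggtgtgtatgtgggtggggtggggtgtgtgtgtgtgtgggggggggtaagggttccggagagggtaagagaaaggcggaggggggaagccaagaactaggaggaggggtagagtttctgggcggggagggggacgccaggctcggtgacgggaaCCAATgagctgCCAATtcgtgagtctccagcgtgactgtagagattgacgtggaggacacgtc
Pax9: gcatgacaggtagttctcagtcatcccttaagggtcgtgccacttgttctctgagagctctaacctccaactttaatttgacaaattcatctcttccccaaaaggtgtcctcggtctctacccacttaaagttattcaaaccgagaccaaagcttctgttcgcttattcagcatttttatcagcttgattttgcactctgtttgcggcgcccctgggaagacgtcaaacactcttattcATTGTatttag
The Pax1 window has 2 matches, both to CCAAT, and the Pax9 window has 1 match, to the SOX core on the minus strand, which reads ATTGT in the sequence as printed. Of 32851 RefSeq promoters of this length, 33.8% hold CCAAT, 27.7% the SOX core, 12.4% the TATA box and 0.703% the GLI core. GC content was 58.8% in the Pax1 window and 43.6% in the Pax9 window, around the median of 52.4%. The same window lies in an annotated exon for Emx2 and for Nkx3-2 and is not shown.

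Each of the 4 genes had its own pattern over the populations. Pax1 was highest in Pαhi LMPs, Pax9 and Nkx3-2 in chondroblasts and Emx2 in OCPs and chondroblasts, while in the SCA-1+ cells all 4 were below 1 CPM. One model was fitted to all 14 libraries for the 15125 genes with enough counts, and all 4 genes passed that filter. A gene counted as called in a pair of populations where its adjusted p did not exceed 0.1 and its log2 fold change was 1.2 or more in size. The adjusted p comes from the quasi-likelihood test of edgeR, with the Benjamini-Hochberg adjustment over all 15125 genes. Of the 10 pairs of populations, Pax1 was called in 6, Pax9 in 7, Emx2 in 8 and Nkx3-2 in 7. Nkx3-2 passed the filter through the chondroblasts, and 3 of its 7 calls set 4, 3 and 3 reads in OCPs against none. These p-values measure the spread between pools of embryos, and in sorted bulk RNA a lower share of expressing cells and less RNA per cell cannot be told apart.

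**Figure D1:**
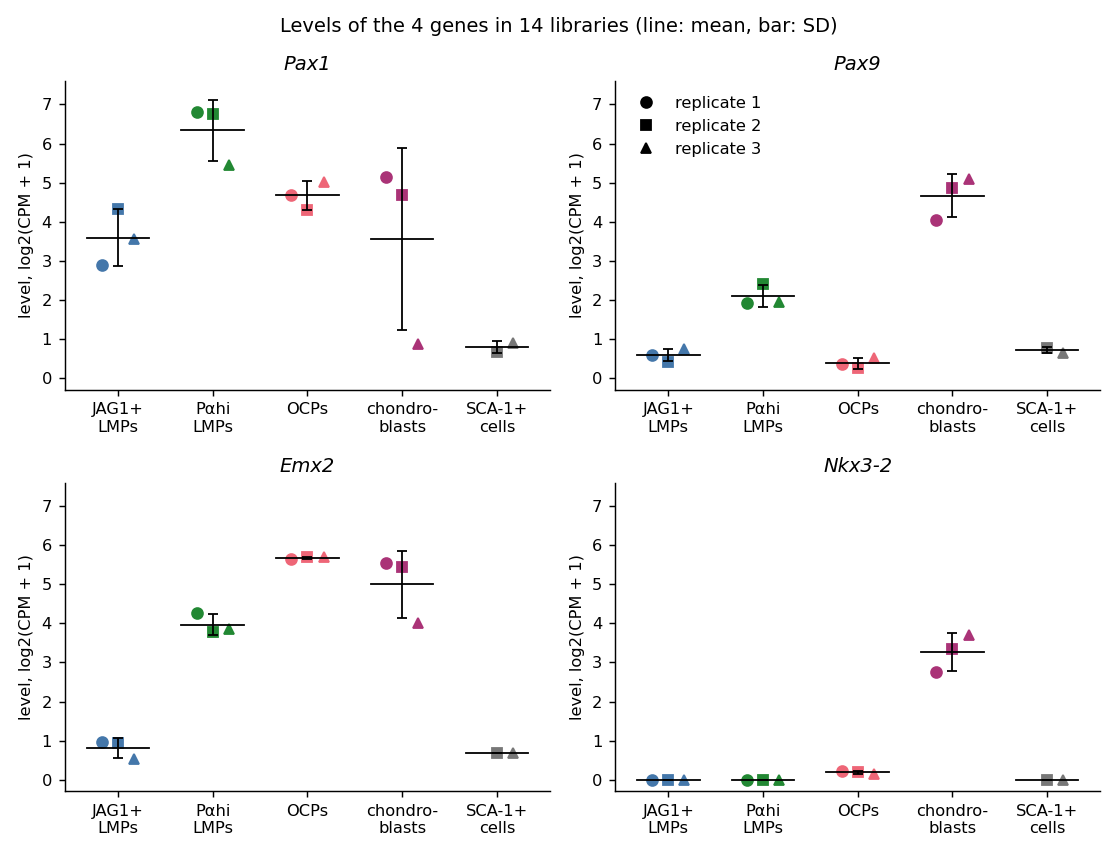
Levels of Pax1, Pax9, Emx2 and Nkx3-2 as log2(CPM + 1) in each library of the 5 populations, with symbols for the replicate number, a line for the mean and a bar for the SD of these log values. Pax1 spans 0.825 to 34.1 CPM within the chondroblasts, Pax9 and Nkx3-2 reach 33.4 and 12.1 CPM there, and Emx2 is near 50.2 CPM in all 3 OCP libraries.

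Among the S9- LMPs, 3 of the 4 genes were higher in Pαhi than in JAG1+ LMPs (Pax1, Pax9 and Emx2), where 7.00% of all genes tested were called. Between OCPs and Pαhi LMPs, Emx2 was higher and Pax9 lower, and Nkx3-2 was called higher on 10 reads, against 4.84% of all genes. Between chondroblasts and OCPs, Pax9 and Nkx3-2 were higher, against 7.77% of all genes. Of the comparisons that skip a population, OCPs over JAG1+ LMPs gave calls for Emx2 and, again on 10 reads, for Nkx3-2 (12.50% of all genes), chondroblasts over JAG1+ LMPs for Pax9, Emx2 and Nkx3-2 (19.35%), and chondroblasts over Pαhi LMPs for all 4, with Pax1 lower (12.65%). Against the SCA-1+ cells every call was in the same direction, higher: Pax1 alone in JAG1+ LMPs (11.43% of all genes called), Pax1, Pax9 and Emx2 in Pαhi LMPs (10.54%), Pax1, Emx2 and, on the same 10 reads, Nkx3-2 in OCPs (12.76%) and all 4 in chondroblasts (19.44%). Comparisons with a population in common share its libraries and are not independent of each other.

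**Figure D2:**
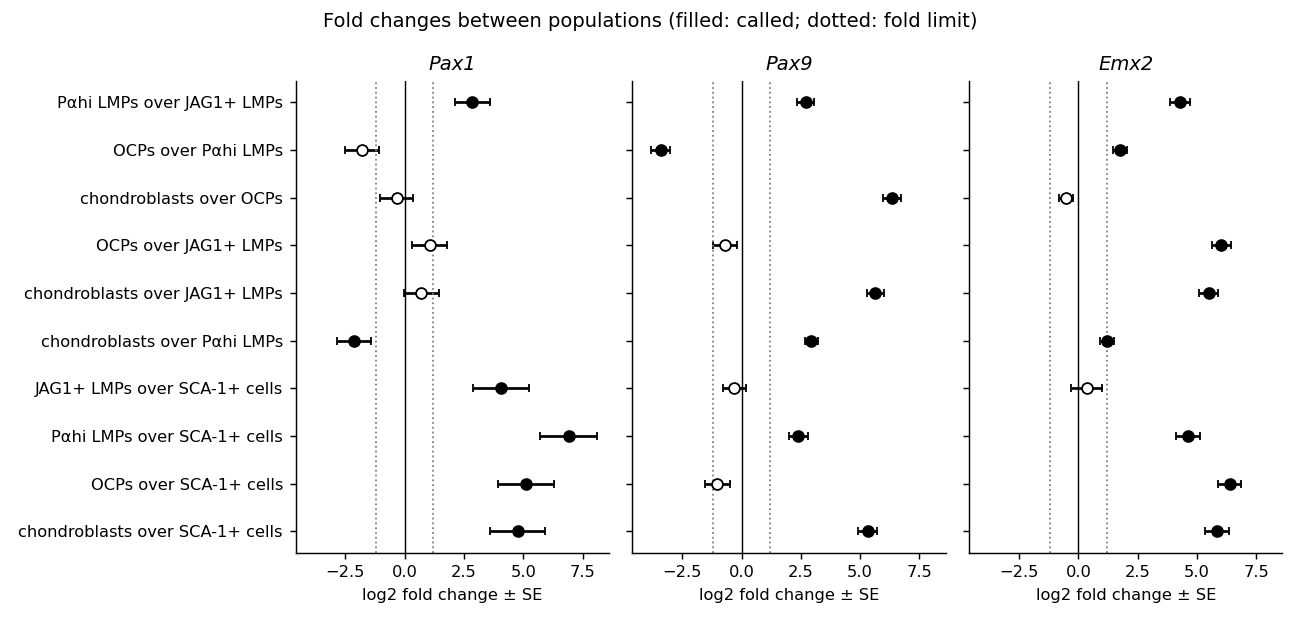
Log2 fold changes with their SE for Pax1, Pax9 and Emx2 in the 10 pairs of populations, the first-named population over the second. Filled points were called, and dotted lines mark the fold limit of 1.2. Nkx3-2 is left out since 3 populations had no read. Pax9 runs from -3.4 in OCPs over Pαhi LMPs to 6.34 in chondroblasts over OCPs.

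Pax1 (Entrez 18503, chr2:147361930-147375049, plus strand) was the most variable of the 4 genes between replicates. In JAG1+ LMPs its levels were 6.42, 19.2 and 10.7 CPM (mean 12.1 ± 6.52, SD, n = 3), and in Pαhi LMPs 112, 108 and 42.4 CPM (87.4 ± 39). In OCPs they were 24.9, 18.7 and 31.6 CPM (25.1 ± 6.46), and in the SCA-1+ cells 0.595 and 0.855 CPM (0.725 ± 0.184, n = 2). All 3 libraries of Pαhi LMPs lay above every other library of the series, though replicate 3 of them was far below the other two. In chondroblasts, libraries 1 and 2 had 34.1 and 24.5 CPM and library 3 had 0.825 CPM, which was within the range of the SCA-1+ cells (19.8 ± 17.1 over the 3). This library held 21 Pax1 reads, against 1013 and 716.

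Pax1 was 7.21-fold higher in Pαhi than in JAG1+ LMPs (log2 2.85 ± 0.74, SE, edgeR adjusted p = 0.0134), with no overlap of the libraries. It was 3.48-fold lower in OCPs than in Pαhi LMPs, again without overlap, but this difference narrowly missed the threshold (log2 -1.8 ± 0.7, edgeR adjusted p = 0.108). Among JAG1+ LMPs, OCPs and chondroblasts the levels overlapped and no pair was called: log2 differences were 1.05 (95% interval -0.5 to 2.6) for OCPs over JAG1+ LMPs, 0.71 (-0.84 to 2.26) for chondroblasts over JAG1+ LMPs and -0.34 (-1.84 to 1.17) for chondroblasts over OCPs. Chondroblasts were below Pαhi LMPs by 4.4-fold (log2 -2.14 ± 0.71, edgeR adjusted p = 0.0239). Against the SCA-1+ cells the log2 differences were 4.06 in JAG1+ LMPs, 6.91 in Pαhi LMPs, 5.11 in OCPs and 4.77 in chondroblasts, and all were called, though library 3 of the chondroblasts lay between the 2 SCA-1+ libraries.

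Several of these Pax1 results rested on chondroblast library 3. All populations share one estimate of the spread, so that the 35.5-fold difference between this library and the mean of the other 2 also widened the errors of comparisons without chondroblasts. With that library left out, the Pax1 difference between OCPs and Pαhi LMPs was nearly the same (log2 -1.82 ± 0.38) and was called (edgeR adjusted p = 0.0078, against 0.0078 to 0.243 over all alternatives). Chondroblasts were then above JAG1+ LMPs (log2 1.23 ± 0.43, edgeR adjusted p = 0.0255, against 0.0255 to 0.962 over all alternatives), and the difference between chondroblasts and OCPs changed its sign without a call (0.19 ± 0.42). Chondroblasts remained below Pαhi LMPs (-1.63 ± 0.44). Leaving out either SCA-1+ library ended the call of Pax1 in JAG1+ LMPs over SCA-1+ cells, at log2 3.82 and 4.34 (edgeR adjusted p = 0.135 and 0.113, against 0.000245 to 0.135 over all alternatives).

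Pax9 (Entrez 18511, chr12:56691693-56712824, plus strand) was at or below 1 CPM in 3 of the 5 populations. Its levels were 0.514, 0.335 and 0.674 CPM in JAG1+ LMPs, 0.284, 0.19 and 0.434 CPM in OCPs, and 0.7 and 0.57 CPM in the SCA-1+ cells, each from 4 to 20 reads. Pαhi LMPs had 2.81, 4.32 and 2.84 CPM (mean 3.32 ± 0.867, SD, n = 3), above all of these libraries. Chondroblasts had 15.5, 27.9 and 33.4 CPM (25.6 ± 9.15), above all other libraries of the series. Library 3, with the fewest Pax1 reads, had the most Pax9 reads (851, against 462 and 815).

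Pax9 was 6.5-fold higher in Pαhi than in JAG1+ LMPs (log2 2.7 ± 0.37, edgeR adjusted p = 0.000108). It was 10.6-fold lower in OCPs than in Pαhi LMPs (log2 -3.4 ± 0.4, edgeR adjusted p = 7.9e-05) and 80.9-fold higher in chondroblasts than in OCPs (log2 6.34 ± 0.37, edgeR adjusted p = 2e-07). Chondroblasts also exceeded Pαhi LMPs by 7.65-fold (log2 2.94 ± 0.28, edgeR adjusted p = 2.86e-06). In none of these pairs did the libraries overlap. The 3 lowest populations were not told apart by the test, with log2 differences of -0.7 (95% interval -1.8 to 0.4) for OCPs over JAG1+ LMPs, -0.31 (-1.36 to 0.73) for JAG1+ LMPs over SCA-1+ cells and -1.02 (-2.15 to 0.11) for OCPs over SCA-1+ cells. Without chondroblast library 3 the difference between chondroblasts and OCPs was 6.08 ± 0.37.

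Compared per kilobase of the deposited exon length, Pax1 exceeded Pax9 in 13 of 14 libraries. The ratio of Pax1 to Pax9 was 20.5, 94.3 and 26.2 in JAG1+ LMPs, 65.5, 41 and 24.6 in Pαhi LMPs, and 144, 162 and 120 in OCPs. The OCPs thus had the highest ratios, with no overlap with any other population. In chondroblasts the ratio was 3.6 and 1.44 in libraries 1 and 2, and 0.0405 in library 3, where Pax9 exceeded Pax1 by 24.7-fold per kilobase. In the SCA-1+ cells, where both genes were low, it was 1.4 and 2.46.

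**Figure D3:**
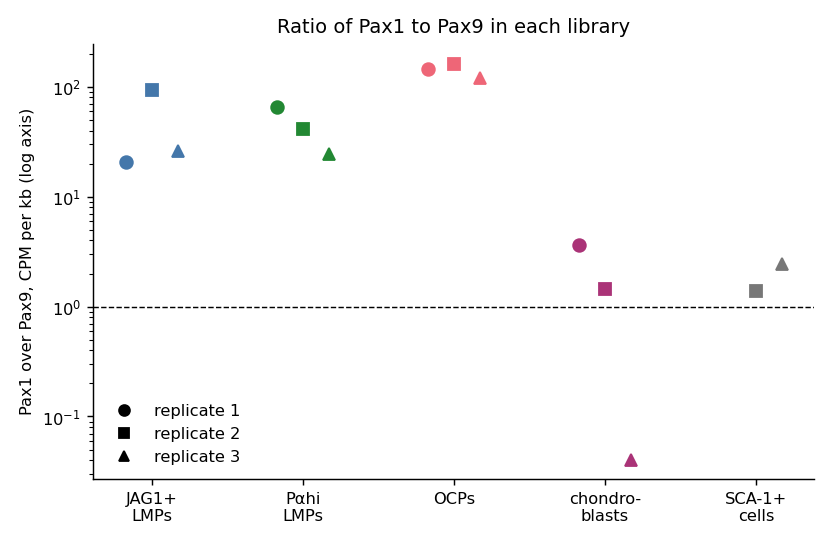
Ratio of Pax1 to Pax9 in each library, from CPM per kilobase of exon, on a log axis, with symbols for the replicate number and a dashed line at equal levels. Only chondroblast library 3, at 0.0405, lies below the line, and the 3 OCP libraries lie highest, at 120 to 162.

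The other 7 genes of the Pax family were mostly silent in the limb mesenchyme. Pax2, Pax4, Pax5 and Pax8 did not pass the filter on low counts, with at most 0.406 CPM in any library. Pax3 and Pax7, which act in muscle precursors, were at 463 and 6.63 CPM in the SCA-1+ cells and at most 1.39 and 0.308 CPM in the other libraries. Pax6, an eye and brain gene, was at 1.34 to 3.49 CPM in all libraries and was called in no pair. Between chondroblasts and OCPs Pax3 was called lower (mean 0.177 against 0.747 CPM) and Pax7 higher (0.213 against 0.0121 CPM), at levels of a few reads. Without chondroblast library 3 Pax7 was still called (log2 3.59), while Pax3 was not (log2 -1.93, edgeR adjusted p = 0.119). Emx1, the nearest paralog of Emx2, stayed at or below 0.14 CPM in all 14 libraries and was not tested.

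Emx2 (Entrez 13797, chr19:59458690-59465357, plus strand) separated the populations more evenly than the other genes. JAG1+ LMPs had 0.942, 0.922 and 0.436 CPM (mean 0.767 ± 0.286, SD, n = 3) and SCA-1+ cells 0.595 and 0.605 CPM, each from 11 to 22 reads. Pαhi LMPs had 18.3, 12.7 and 13.5 CPM (14.8 ± 2.99). OCPs had 48.8, 51.1 and 50.6 CPM (50.2 ± 1.18), a spread between replicates that was smaller than that of 14743 of the 15125 genes on the log2 scale. In chondroblasts libraries 1 and 2 lay at 45.4 and 42.5 CPM, just below the OCPs, and library 3 at 15.2 CPM, within the range of the Pαhi LMPs (34.4 ± 16.7 over the 3).

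Emx2 was 19.4-fold higher in Pαhi than in JAG1+ LMPs (log2 4.28 ± 0.42, edgeR adjusted p = 5.43e-06), and a further 3.38-fold higher in OCPs (log2 1.76 ± 0.3, edgeR adjusted p = 0.00157). OCPs exceeded JAG1+ LMPs by 65.5-fold (log2 6.03 ± 0.41, edgeR adjusted p = 8.33e-08). Chondroblasts lay below OCPs in every library, but by less than the test could call (log2 -0.54 ± 0.29, edgeR adjusted p = 0.182). JAG1+ LMPs and SCA-1+ cells were not told apart either (log2 0.34, 95% interval -1.06 to 1.75).

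The Emx2 difference between chondroblasts and Pαhi LMPs lay at the fold limit, at log2 1.21 ± 0.3 (edgeR adjusted p = 0.00444), with overlapping libraries. It fell below the limit of 1.2 in 12 of 21 alternatives, where it was 0.93 to 1.19, including that with the replicate number as a block (1.15). Without chondroblast library 3 it was 1.52 ± 0.16 and no other alternative gave a higher value, while the difference between chondroblasts and OCPs was -0.21 ± 0.16.

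Exons of the antisense gene Emx2os cover 8.79% of the exon bases of Emx2, and whether strand was used in counting was not stated, so a part of the Emx2 reads could be antisense. Emx2os had 2 to 3 reads in each library of JAG1+ LMPs, 75, 69 and 26 in Pαhi LMPs, 143, 179 and 232 in OCPs, 177, 189 and 47 in chondroblasts and 2 and 5 in SCA-1+ cells. In every library it had fewer reads than Emx2, which had between 11 and 1399. It was called higher in Pαhi than in JAG1+ LMPs (log2 4.53 ± 0.65) and in OCPs than in Pαhi LMPs (1.69 ± 0.39), the same pairs as Emx2, and it too was lowest in library 3 among the chondroblasts. AI646519, which is antisense to Pax1, and Slc25a21 cover 5.46% and 3.74% of the exon bases of Pax1 and Pax9, and no gene overlaps the exon of Nkx3-2.

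Nkx3-2 (Entrez 12020, chr5:41761483-41764220, minus strand) had no read in any of the 8 libraries of JAG1+ LMPs, Pαhi LMPs and SCA-1+ cells. In OCPs it had 4, 3 and 3 reads (0.162, 0.143 and 0.109 CPM), around the level that a count of 0 allows for. In chondroblasts it had 170, 266 and 307 reads, or 5.72, 9.1 and 12.1 CPM (mean 8.96 ± 3.17, SD, n = 3). The chondroblast libraries were thus apart from all others, and library 3 was the highest of them.

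Chondroblasts had 64.5-fold more Nkx3-2 than OCPs, with an exact 95% interval of 34.9 to 135 from the 10 reads of the OCPs, which covers counting error only. The pair was called (log2 5.98 ± 0.43, edgeR adjusted p = 1.97e-05), and without chondroblast library 3 the value was 5.69 ± 0.41. The chondroblast mean of Nkx3-2 (8.96 CPM) was set against 3 counts in the shallowest library of each population without reads. It was at least 69.7-fold higher than in JAG1+ LMPs, at least 59.9-fold higher than in Pαhi LMPs and at least 83.8-fold higher than in SCA-1+ cells. These bounds allow for counting error in the populations without reads, but not for the spread of the chondroblasts (5.72 to 12.1 CPM). The test also called OCPs higher than the 3 populations without reads (edgeR adjusted p = 0.0169, 0.0449 and 0.028 against JAG1+ LMPs, Pαhi LMPs and SCA-1+ cells). These calls were weak: with only the 2 populations compared in the fit, Nkx3-2 did not pass the filter on low counts in the 3 pairs, and leaving out replicate 3 of the Pαhi LMPs, or replicate 2 or 3 of the SCA-1+ cells, ended the call against that population (edgeR adjusted p = 0.105, 0.104 and 0.107).

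Per kilobase, the order of the mean levels of the 4 genes in OCPs and in chondroblasts differed from that in the other 3 populations. Pax1 led in JAG1+ LMPs (4.6 CPM per kilobase, against 0.295 for Emx2 and 0.117 for Pax9) and in Pαhi LMPs (33.1, against 5.71 and 0.767). By the mean it was also first in the SCA-1+ cells (0.275, against 0.231 and 0.146). In replicate 2 of these, however, Pax1 was at 0.225 and Emx2 at 0.229, from 17 reads each. In OCPs Emx2 led with 19.3, ahead of Pax1 with 9.52, and Nkx3-2 and Pax9 were at 0.0959 and 0.0698. In chondroblasts Emx2 was at 13.2, Pax1 at 7.51, Nkx3-2 at 6.23 and Pax9 at 5.91 CPM per kilobase, and within library 3 alone Nkx3-2 was at 8.39, Pax9 at 7.71, Emx2 at 5.85 and Pax1 at 0.313. Chondroblasts were the only population in which each of the 4 genes had a mean above 5 CPM per kilobase.

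**Figure D4:**
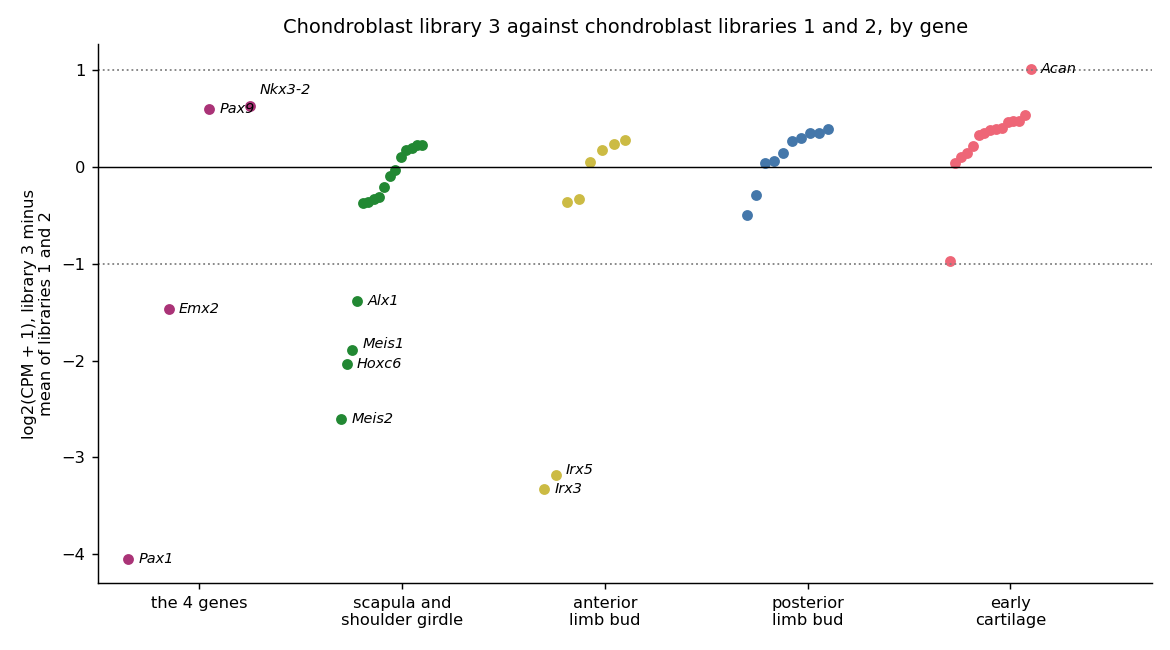
Difference of chondroblast library 3 from the mean of chondroblast libraries 1 and 2, in log2(CPM + 1), for each tested gene of 5 groups; dotted lines mark 2-fold. Pax1 is at -4.05 and Emx2 at -1.47, while Pax9 and Nkx3-2 are at 0.6 and 0.63, and no posterior gene passes 2-fold.

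Chondroblast library 3 differed from libraries 1 and 2 in a small set of genes, and Pax1 differed the most among those that were lower. On the log2(CPM + 1) scale it was lower by at least 2-fold for 103 of 15125 genes (0.681%) and higher for 4 (0.0264%). The same comparison is not given here for other libraries. Pax1 had the lowest value of all 15125 genes (-4.05), and Emx2 was the 47th lowest (-1.47). Of 16 other genes of scapula and shoulder girdle development, 4 were lower by at least 2-fold, which were Meis2, Hoxc6, Meis1 and Alx1, and of 8 anterior limb bud genes 2 were, Irx3 and Irx5. These 6 genes were picked out for their values. No posterior limb bud gene of 10 was lower by as much. Of 15 cartilage genes tested, Runx2 lay at the limit (-0.97, from 53.1 to 26.5 CPM) and Acan, a proteoglycan of cartilage, was higher.

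The TALE homeobox genes Meis1 and Meis2 mark the proximal limb, and the Iroquois genes Irx3 and Irx5 act in its proximal and anterior part. Irx3 was at 79.7 and 50.4 CPM in chondroblast libraries 1 and 2 and at 5.58 CPM in library 3. Irx5 was at 33.7, 22.3 and 2.2 CPM, and Meis2 at 115, 86.6 and 15.7 CPM. Meis1 was at 55.2, 41 and 12.3 CPM, and Hoxc6 at 31, 25.1 and 6.13 CPM. Alx1 was at 4.57, 4.35 and 1.1 CPM. In all 6 library 3 was the lowest of the 3, by 3.93-fold for Meis1 up to 12.7-fold for Irx5 against the mean of the other 2. In replicate 3 of the Pαhi LMPs, where Pax1 was at 42.4 CPM, Irx3 was at 96.6 and Meis2 at 162 CPM, against 98.5 to 113 and 190 to 193 CPM in the other two. In JAG1+ LMPs Irx3 ranged likewise, from 37 and 21.8 CPM to 9.51 CPM in replicate 3, and Meis2 from 45 and 24 CPM to 15.2 CPM, while Pax1 was lowest in replicate 1. What set chondroblast library 3 apart was not tested.

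**Figure D5:**
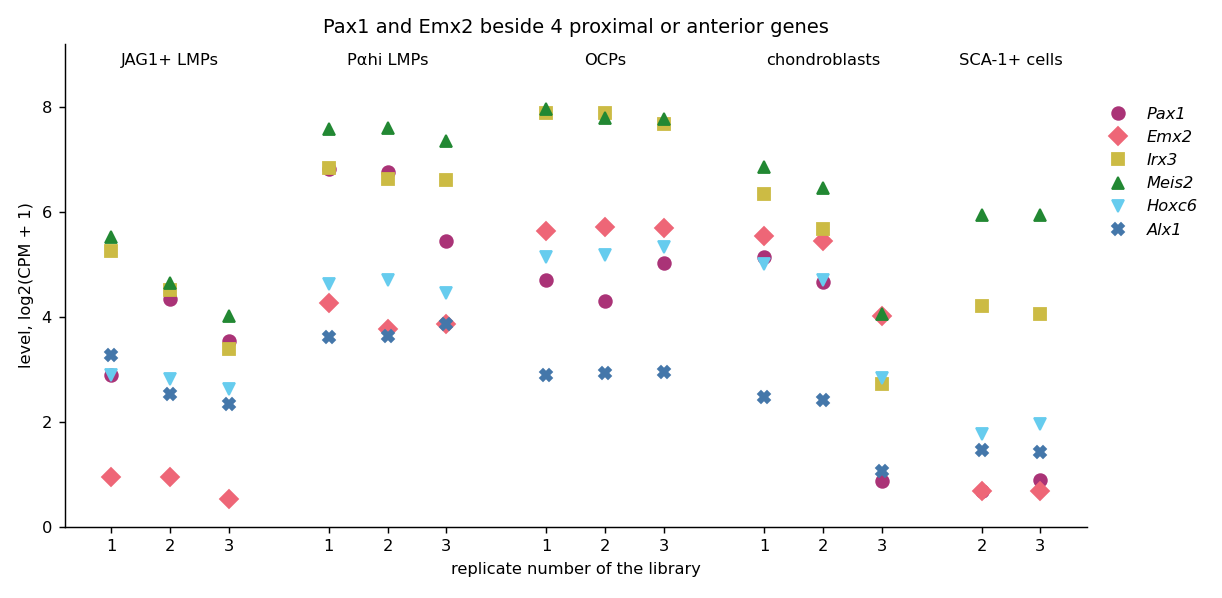
Levels of Pax1, Emx2, Irx3, Meis2, Hoxc6 and Alx1 as log2(CPM + 1) in each library, grouped by population and placed by replicate number. In chondroblast library 3 all 6 lie below libraries 1 and 2, and Pax1 falls to 0.825 CPM.

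The scapula and shoulder girdle list was also followed through the populations. Between Pαhi and JAG1+ LMPs 8 of its 16 genes were higher and none lower, with a median log2 difference of 1.36, against 0 for all genes tested. The largest changes were those of Meis2 (2.7 ± 0.52), Alx4, which limits posterior identity (2.65 ± 0.25), and Meis1 (2.61 ± 0.45). Between OCPs and Pαhi LMPs Tbx15, a factor required for the shoulder blade, was higher (1.35 ± 0.17), and 2 genes were lower, among them Prrx2 (-1.35 ± 0.14), with a median of -0.03 over the list. Between chondroblasts and OCPs only Meis1 and Meis2 were called, both lower (-1.87 ± 0.42 and -1.66 ± 0.49), and without chondroblast library 3 both were still called, at -1.49 and -1.2. Emx2 was called higher in OCPs than in Pαhi LMPs, as was Tbx15 of the list. In that pair 13 of the 16 list genes were not called, while 4.84% of all genes tested were called.

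Of the 8 anterior limb bud genes, 4 were higher in Pαhi than in JAG1+ LMPs and 1 lower (median 1.37), among them Alx4, Irx5 (2.31 ± 0.59) and Irx3 (2.17 ± 0.62). Between OCPs and Pαhi LMPs 3 were lower and none higher (median -0.76), among them the Eph receptor gene Epha3 (-2.42 ± 0.22). Between chondroblasts and OCPs 2 were higher, among them Epha3 (2.45 ± 0.22), and Irx3 and Irx5 were lower (-2.31 ± 0.61 and -2.17 ± 0.55). Without chondroblast library 3 these 3 genes were still called, at 2.34, -1.8 and -1.66. Epha3, like Pax9, was thus lower in OCPs than in both Pαhi LMPs and chondroblasts. Over all genes tested, 7.00% were called in Pαhi over JAG1+ LMPs, with a median of 0. The values were 4.84% and 0.02 for OCPs over Pαhi LMPs, and 7.77% and -0.02 for chondroblasts over OCPs. These shares also stand beside the counts of the lists that follow.

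Of the 10 posterior genes, 5 were lower and 2 higher in Pαhi than in JAG1+ LMPs (median -1.27), with Hoxd13, a gene of the distal limb, at -3.79 ± 0.21, and the T-box genes Tbx3 and Tbx2 at 2.43 ± 0.22 and 2.36 ± 0.16. Between OCPs and Pαhi LMPs 5 were lower and none higher (median -1.1), and between chondroblasts and OCPs 3 were higher and none lower (median 0.67), led by Hoxd13 (3.57 ± 0.21). Pax1, Pax9 and Emx2 were thus called in the direction opposite to Hoxd13 in the first of these pairs, and Pax9 in the same direction as Hoxd13 in the other two. In OCPs over Pαhi LMPs Emx2 and, on 10 reads, Nkx3-2 were called higher, opposite to Hoxd13 (25.3 against 71.6 CPM). Nkx3-2 was called higher in chondroblasts over OCPs, like Hoxd13. Of 15 cartilage genes tested, 3 were higher and 1 lower in Pαhi than in JAG1+ LMPs (median 0), 7 higher and none lower in OCPs than in Pαhi LMPs (median 0.96) and 8 higher and none lower in chondroblasts than in OCPs (median 1.8). Matn4, which encodes a matrilin of cartilage matrix, was at 0.852, 4.71 and 5.97 CPM in OCPs and at 73.2, 104 and 111 CPM in chondroblasts (log2 4.64 ± 0.44), beside the 2 members that were called there, Pax9 (6.34) and Nkx3-2 (5.98).

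Pax1, Pax9 and Nkx3-2 are also genes of the sclerotome, and trunk tissue lies beside the forelimb bud. The summed level of 10 somite and sclerotome genes was 158 to 177 CPM in JAG1+ LMPs, 373 to 494 CPM in Pαhi LMPs, 641 to 815 CPM in OCPs, 901 to 956 CPM in chondroblasts and 394 to 408 CPM in SCA-1+ cells. Among its genes, Ripply1 had no read in any library, Mesp2 was at most 0.269 CPM, and Uncx was at most 0.24 CPM outside the SCA-1+ cells, which had 8.57 and 6.09 CPM. Of the 8 genes of this list that were tested, 2 were higher and 1 lower in Pαhi than in JAG1+ LMPs, 4 higher in OCPs than in Pαhi LMPs, and 2 higher and 1 lower in chondroblasts than in OCPs. The forkhead genes Foxc1 and Foxc2 were at 4.96 and 1.2 CPM in Pαhi LMPs, 81.8 and 5.09 CPM in OCPs and 211 and 25.3 CPM in chondroblasts, and both were called higher at each of these steps, in chondroblasts over OCPs together with Pax9 and Nkx3-2. Meox1 was at 2.81, 16.3 and 21.9 CPM and Tcf15 at 6.21, 23.9 and 7.97 CPM in the same populations, both called higher in OCPs than in Pαhi LMPs, and Tcf15 was then lower in chondroblasts. The genes with the highest means were Tbx18 (299 CPM), Mfap4 (234 CPM) and Foxc1 in chondroblasts, and Meox2 (195 CPM) and Tcf15 (75.9 CPM) in SCA-1+ cells. In chondroblast library 3, where Pax1 was lowest and Pax9 highest of the 3, the sum was 925 CPM, between 901 and 956 CPM in the other two. Among 8 genes of the mesonephros and coelomic lining, where Emx2 is also expressed, Pax8 and Cdh16 were at most 0.0498 and 0.0356 CPM in any library and Pax2 at most 0.406 CPM. Wt1, Upk3b and Gata3 were at 2.91, 2.1 and 4.67 CPM in replicate 1 of the JAG1+ LMPs. Lhx1 was at 2.02 CPM in chondroblasts and 0.305 CPM in OCPs. Of 5 genes tested, 1 was higher and 2 lower in Pαhi than in JAG1+ LMPs, and likewise in OCPs than in Pαhi LMPs. In chondroblasts over OCPs 2 were higher and 1 lower, and 4 were called without chondroblast library 3. The sum, of which Osr1 made up the most in all populations but the JAG1+ LMPs, was 4.4 to 12.8 CPM in JAG1+ LMPs, 54.6 to 73.6 CPM in Pαhi LMPs, 24.6 to 33.1 CPM in OCPs, 47.4 to 72.9 CPM in chondroblasts and 36.8 to 43.9 CPM in SCA-1+ cells. The part of such tissue in the results was not tested.

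Some summed markers of other cells were higher in chondroblasts than in OCPs, as Pax9 and Nkx3-2 were. In chondroblasts the summed levels of 6 endothelial genes (29.6 to 54.9 CPM), 5 neural crest genes (21.1 to 29.2 CPM) and 7 ectodermal genes (18.4 to 21.9 CPM) were above those of the OCPs, which were 15.1 to 18.1, 9.61 to 21.4 and at most 12.2 CPM, with an overlap for the neural crest. Most of the endothelial sum in chondroblasts was Erg, at a mean of 42 CPM there and 12.5 CPM in OCPs. In chondroblasts over OCPs 1 of 6 endothelial, 2 of 5 neural crest and 1 of 4 tested ectodermal genes were called higher, and none lower. Their median log2 differences were -0.26, -0.06 and 0.64, and 7.77% of all genes tested were called. In JAG1+ LMPs the 3 sums did not exceed 10.4, 5.03 and 5.18 CPM, and in Pαhi LMPs 23.2, 6.43 and 7.4 CPM. In OCPs over Pαhi LMPs, a pair in which Pax9 was lower, 4 neural crest genes and 1 ectodermal gene were called higher, and 1 endothelial gene lower. The part of these other cells in the Pax9 and Nkx3-2 results was not tested.

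Over the 14 libraries, the genes whose log2 CPM was most like that of each member were named from 11858 or 11859 genes with a mean of at least 1 log2 CPM. These Pearson correlations are descriptions over 14 points that share populations and library sizes. For Pax1 they were Ak5, an adenylate kinase gene (r = 0.893), Adgre5, an adhesion receptor gene (0.888), and Alx1, a paired-type homeobox gene (0.884). All 3 were lower in the SCA-1+ cells than in each other population on average, and Adgre5 and Alx1 were highest in Pαhi LMPs (53.3 ± 9.59 and 12.1 ± 1.3 CPM, SD, n = 3). For Pax9 they were the thyroid hormone receptor gene Thra (0.964), Dnajb14 (0.936) and Cacng4 (0.936), which were all highest in chondroblasts, with Cacng4 at 9.31 ± 1.28 CPM there and 1.94 ± 0.815 CPM in OCPs.

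For Emx2 the most like genes were Aass, which encodes an enzyme of lysine breakdown (r = 0.988), Plcl1 (0.985) and Ldb2, a cofactor of LIM homeodomain proteins (0.982). Ldb2 was at 12.6 ± 1.85 CPM in JAG1+ LMPs, 52.9 ± 8.15 CPM in Pαhi LMPs, 71.1 ± 2.58 CPM in OCPs and 61 ± 2.06 CPM in chondroblasts, and so without the drop of Emx2 in chondroblast library 3, which had at least 58.7 CPM of Ldb2. For Nkx3-2 they were Clstn3 (0.977), Grina (0.975) and the kinase gene Nek6 (0.968), all of which had reads in every library and were highest in chondroblasts. Among the 4 genes themselves r was 0.78 for Pax9 and Nkx3-2, 0.56 for Pax1 and Emx2, 0.52 for Emx2 and Nkx3-2, 0.37 for Pax9 and Emx2, 0.06 for the paralogs Pax1 and Pax9, and -0.11 for Pax1 and Nkx3-2.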

How the data were processed

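RNA-seq libraries of 5 FACS-sorted populations (14 libraries) were analysed from the counts per gene that the authors deposited. Per the paper's methods, single-end reads of 50 cycles were aligned to mm10 with STAR, keeping 1 hit for reads with several, and reads starting in exons of RefSeq genes were counted with qCount of QuasR, without normalization; whether strand was used is not given in the sources used here. The deposited table also lists the exon length of each gene, which was used for values per kilobase. Of 24454 Entrez identifiers, 24374 matched a RefSeq symbol (GRCm38.p6), and the other 80 held 0.358% of the counts.

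The counts were filtered with filterByExpr by population (15125 genes), scaled by TMM (factors 0.957 to 1.061) and fitted with edgeR 4.0.16 (R 4.3.3, limma 3.58.1), with 1 mean per population and no covariate. The SE of a log2 fold change was obtained from its F statistic (log2 fold change / √F, in size). The common biological coefficient of variation was 13.4%, and 63.2% for Pax1, 24.4% for Pax9, 26.7% for Emx2 and 28.1% for Nkx3-2. Replicate libraries differed by more than sampling noise (chi-square per degree of freedom 7.8 to 76.3). The highest values were those of OCP replicate 2 against OCP replicates 1 (76.3) and 3 (40). Chondroblast replicate 3 had 15.9 against replicate 1 and 22.7 against replicate 2, and those 2 had 18.1. The procedure was tested on simulated data. Promoters and symbols are from RefSeq (GRCm38.p6), and exons and shared stretches from GENCODE M21 (GRCm38).

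The 4 genes, the gene lists and the tests were chosen with earlier results of these data known. Named are the 4 genes; the other Pax genes, the paralogs and the genes of the sort; per list, up to 3 genes with the largest called change in Pαhi over JAG1+ LMPs, OCPs over Pαhi LMPs and chondroblasts over OCPs; and per member the 3 genes most correlated with it (log2 CPM, prior count 2). Emx2os and other genes overlapping the members, the genes low in chondroblast library 3 (Runx2 included) and trunk markers were named after their values were seen. Some genes that the rule names are not reported here. As alternatives, libraries were scaled by size factors (DESeq2 1.42.0) or left unscaled, the filter was dropped, and calls were made by the Wald test of DESeq2, in fits of only the 2 populations compared, at limits of 0.05 and 1, with the replicate number as a block and with each library left out. Python 3.11.15 with pandas 2.3.3 and matplotlib 3.10.9 was used for tables and figures.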

Additional observations from a re-analysis of the deposited data

How the results depend on the processing

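Of 774 recomputed log2 fold changes of the 4 genes, 752 kept their direction and their side of the limits. The Pax1 difference between chondroblasts and OCPs reversed from -0.34 to 0.19 without chondroblast replicate 3, and was -1 to 0.19 over all libraries left out. Of the others that changed, 17 lost their call, 12 of them Emx2 in chondroblasts over Pαhi LMPs, and 4 gained one, 3 of them Pax1 in OCPs over Pαhi LMPs. That Pax1 difference was called with no filter on low counts (edgeR adjusted p = 0.0877), with only the 2 populations in the fit (edgeR adjusted p = 0.0196) and without chondroblast replicate 3 (edgeR adjusted p = 0.0078). With each library left out in turn, Pax1 was called in 5 to 8 pairs of populations, Pax9 in 7, Emx2 in 7 to 8 and Nkx3-2 in 6 to 7. Nkx3-2 was called in 4 pairs with only the 2 populations in the fit, since it then did not pass the filter in the 3 pairs of OCPs with populations without reads. For the other changes the cause was not tested.

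With the replicate number as a block, Pax1 was called in 6, Pax9 in 7, Emx2 in 7 and Nkx3-2 in 7 pairs, and 734 genes in OCPs over Pαhi LMPs, against 732 without it. Deviations from the population means correlated between libraries of the same number at -0.16 to 0.23 (26 pairs, median -0.01) and of other numbers at -0.26 to 0.36 (52 pairs, median 0). These values pool all populations and cannot tell whether particular populations were paired by number, which was not tested. In number order, the summed blood genes were at 35, 5.94 and 32.2 CPM in Pαhi LMPs and 47, 6.32 and 32.4 CPM in OCPs. In JAG1+ LMPs they were at 22.5, 33.5 and 0.912 CPM.

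Counts over all genes stayed within 1.39-fold in all 10 pairs, and 2820 of 2940 recomputed list counts within 1.5-fold. Depth limits Nkx3-2 outside the chondroblasts and Pax9 and Emx2 where they had 4 to 22 reads.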
